A study of Mus musculus with 24 samples.

Results

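The genes described here encode the proteins of the cytosolic ribosome, measured in microglia, which are the macrophages that live in the brain. They were taken by gene symbol from the deposited count table, as Rpl and Rps names followed by a number, together with Rpsa, Rplp0, Rplp1, Rplp2 and Fau, leaving out pseudogene names and the Rps6k kinases. A mean of at least 10 normalized CPM (the authors' library-scaled counts) over all libraries was also asked for. Of 56980 rows in the table, 90 had such a symbol and 82 passed, 48 of the large subunit and 34 of the small subunit. The lowest level inside this limit was 46.5 normalized CPM (Rpl22l1), and the highest outside it was 9.89 normalized CPM (Rpl39l). All 82 members also passed the filter on low counts, which left 14090 genes for testing.

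The 4 groups compared were GrnKO high, WT high, GrnKO low and WT low, with 6 libraries in each. GrnKO mice were Grn-/- and therefore lacked progranulin, a secreted protein that is delivered to lysosomes, and WT mice were Grn+/+. All 12 animals were 19 months old and, in both genotypes, carried the hTfR mu/hu knock-in on a C57Bl/6J background, with 3 animals labelled male and 3 labelled female per genotype. Each brain was dissociated with 5 µM actinomycin D and 2 µM anisomycin, which block transcription and translation, and living CD11b+ CD45+ cells were sorted by autofluorescence excited at 488 nm into a high and a low bin. No label states where the gates lay or whether GrnKO and WT brains were gated alike. Autofluorescence served as the measure of lipofuscin, the undigested residue that collects in ageing lysosomes. Every animal gave 1 library per bin, and each library was made from 1000 cells with a 3′ cDNA kit and held 12.9 to 46.8 M (mega) estimated counts.

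A ribosome joins a large and a small subunit, and each ribosomal protein is normally present once per subunit, so cells make these proteins in matched amounts. In mammals their transcripts typically start with an uninterrupted run of pyrimidines, the terminal oligopyrimidine (TOP) motif, through which the kinase mTORC1 sets how strongly they are translated. Ribosomal protein transcripts are among the most abundant in most cells, microglia included, and are a common readout of growth state.

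The sequence around the annotated start site is shown for a choice of 10 members named in the results below, because it is where a TOP motif would lie. Each line reads 5′ to 3′ along the transcript strand, with 15 bases before and 15 bases from the start site on, and capitals mark a run of at least 6 C or T bases that overlaps the 10 bases on either side of the start.

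Rps10: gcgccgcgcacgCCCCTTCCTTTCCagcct
Rpl14: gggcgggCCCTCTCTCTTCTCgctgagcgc
Fau: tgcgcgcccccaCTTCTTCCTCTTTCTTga
Rpl15: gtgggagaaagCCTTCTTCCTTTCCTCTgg
Rpl12: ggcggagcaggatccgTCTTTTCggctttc
Rps6: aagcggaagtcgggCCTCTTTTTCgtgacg
Rps27: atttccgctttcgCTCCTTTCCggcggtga
Rpl22l1: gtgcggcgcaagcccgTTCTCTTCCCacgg
Rplp0: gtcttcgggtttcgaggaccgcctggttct
Rpl11: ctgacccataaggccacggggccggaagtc

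The sequences are from RefSeq on GRCm38.p6, whereas the authors' build was GRCm39. On GRCm38.p6 the windows of Rps10 (chr17:27635230-27635259, minus strand), Rpl14 (chr9:120571502-120571531, plus strand), Fau (chr19:6057932-6057961, plus strand) and Rpl15 (chr14:18270972-18271001, minus strand) span the annotated transcription start. The others are those of Rpl12 (chr2:32961697-32961726, plus strand), Rps6 (chr4:86857353-86857382, minus strand), Rps27 (chr3:90213634-90213663, minus strand), Rpl22l1 (chr3:28805493-28805522, plus strand), Rplp0 (chr5:115559452-115559481, plus strand) and Rpl11 (chr4:136053379-136053408, minus strand). Rpl15, Fau and Rpl14 held runs of 17, 16 and 14 pyrimidines, and Rps10 one of 13. Rplp0 and Rpl11 had no such run in the annotated window. Of 61 members with a sequence in the RefSeq table, 38 (62.3%) had a run, against 32.7% of all 27025 genes with a sequence and 33.6% of the 10249 tested ones. The search covered the transcript strand only, and annotated starts can differ from the starts used in microglia.

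Grn itself checked the genotype labels. It stood at 0.604, 3.70 and 20.0 CPM (lowest, median, highest) in GrnKO low libraries, against 449, 665 and 917 CPM in WT low libraries. In the high bin it stood at 0.433, 2.39 and 17.1 CPM in GrnKO libraries, against 531, 842 and 1582 CPM in WT libraries. No library crossed over. Microglial markers were present in every library, the 7 markers summing to 11444 to 33992 CPM. Levels from here on are CPM scaled by edgeR's TMM factors, and every contrast was tested with edgeR's quasi-likelihood test with Benjamini-Hochberg adjustment over all tested genes, with an adjusted p under 0.05 as the threshold. In such sorted bulk samples, fewer cells of a type and less RNA per cell cannot be told apart.

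Several libraries stood apart, and all are kept in the values that follow unless stated. Animal 1 (WT) had 9.70% mitochondrial counts in its low and 7.91% in its high library, against a median of 2.20% over all libraries, and the highest sums of astrocyte markers, 1571 and 1627 CPM. Markers of the choroid plexus exceeded 10000 CPM in 4 libraries (GrnKO low of animal 8, both libraries of animal 1 and WT low of animal 9). GrnKO low of animal 12 held 35209.5 CPM of erythrocyte and 29368 CPM of neutrophil markers, against 14950 CPM of microglial markers. WT low of animal 9 held 84263 CPM of choroid plexus markers, against 17932 CPM of microglial markers. Another cell type's markers also exceeded the microglial sum in GrnKO low of animal 8 and WT high of animal 1. The same held for WT low of animals 1 and 3. B cell markers reached 16995 CPM in GrnKO low of animal 2 (median over all libraries 735 CPM). Xist and Y-linked transcripts opposed the sex label in 12 of 12 animals. The deposited values carry 2 significant digits, so that a single value is rounded by up to 5.0%.

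On the TMM scale, ribosomal protein genes as a family were lowest in WT low libraries. The summed level of the 82 members was 42681, 45046 and 59787 CPM (lowest, median, highest) in GrnKO high, 32677, 42512 and 65164 CPM in WT high, 42985, 49783 and 58078 CPM in GrnKO low, and 32879.9, 37528 and 48505 CPM in WT low libraries. Except for animal 1, every WT low library lay below every GrnKO low library. WT low had the lowest group mean for 69 of the 82 members, whereas it was lowest for 25.1% of all tested genes. GrnKO low had the highest mean for 47 members, against 24.03% of all tested genes. GrnKO high was highest for 19 members, WT high for 14 and WT low for 2.

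**Figure D1:**
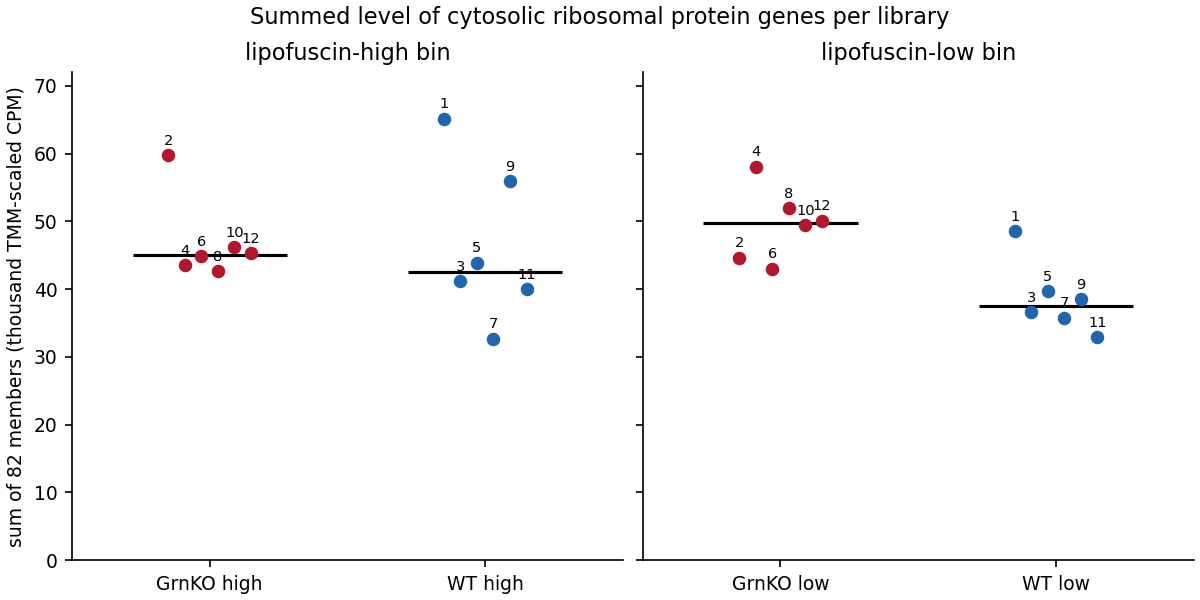
Summed TMM-scaled CPM of the 82 ribosomal protein genes (vertical axis, in units of 1000 CPM) in each library, with GrnKO left of WT in the lipofuscin-high (left) and lipofuscin-low (right) bin. Points are libraries numbered by animal and black lines are medians (GrnKO high 45046, WT high 42512, GrnKO low 49783 and WT low 37528 CPM); animal 1 is the highest WT library in both bins and animal 2 the highest GrnKO high library.

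As a share of all counts in a library, without TMM scaling, the members held 4.96 ± 0.510% in GrnKO low and 4.24 ± 0.473% in WT low libraries (SD, n = 6 each). In the high bin they held 4.33 ± 0.336% in GrnKO and 4.51 ± 0.771% in WT libraries (SD, n = 6 each). The median shares of WT low and GrnKO high were 4.19% and 4.21%, so without TMM scaling these groups lay close together. The ratio of the mean shares was 1.17 for GrnKO low over WT low and 0.960 for GrnKO high over WT high. In the authors' normalized CPM the same ratios were 1.30 and 1.03, so the direction in the high bin depends on the scaling. Within animals, the share in the high bin divided by that in the low bin was 0.731, 0.887 and 1.06 (lowest, median, highest) in GrnKO mice, with 1 of 6 above 1. In WT mice it was 0.858, 1.06 and 1.33, with 4 of 6 above 1. The large-subunit share divided by the small-subunit share had medians of 1.46 in GrnKO high, 1.42 in WT high, 1.46 in GrnKO low and 1.43 in WT low libraries, with overlapping ranges in all groups.

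In the lipofuscin-low bin, nearly the whole family stood higher in GrnKO than in WT libraries, although no single member passed the threshold. Of the 82 members, 77 had a positive log2 fold change (48.3% of all tested genes did), with a median of 0.37 against −0.03 over all tested genes. The call count was 0 of 82 members, against 0.326% of all tested genes. At an unadjusted p under 0.05, 45 members (54.9%) were higher and 0 lower, against 5.09% and 5.11% of all tested genes. For 10 members (12.2%) every GrnKO low library exceeded every WT low library, against 0.774% of all tested genes. Members share their libraries and many vary together, so these counts are not 82 separate observations. Within groups, the correlation of a member with the sum of the others was −0.641 to 0.957, and 0.766 at the median. The shares of all tested genes given above are those of the reported fit. Genes called in total changed with the fit as well, from 30 to 118 with an animal left out and from 21 to 358 over the other settings. DESeq2 called 11 members and limma-voom 0. Without animal 1, edgeR called 10 members, all higher in GrnKO, with a median log2 fold change of 0.41 and 80 of 82 positive. With library size as the only scaling, the median of the members was 0.22 and that of all tested genes −0.17, 72 members were positive, and 26 members had an unadjusted p under 0.05.

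Rpl19, a large-subunit protein that forms a bridge between the subunits, stood at 442, 558 and 631 CPM (lowest, median, highest) in GrnKO low, against 292, 379 and 416 CPM in WT low libraries. The groups did not overlap, and the log2 fold change was 0.60 ± 0.142 (SE; adjusted p = 0.0570). Rpl8, which lies near the peptidyl transferase centre of the large subunit, stood at 269, 325 and 411 CPM in GrnKO low, against 136, 218 and 252 CPM in WT low libraries. All GrnKO libraries were above all WT libraries, with a log2 fold change of 0.69 ± 0.165 (SE; adjusted p = 0.0611). Rps19, needed for small-subunit maturation and mutated in human Diamond-Blackfan anaemia, stood at 944, 1146 and 1254 CPM in GrnKO low, against 665, 726 and 931 CPM in WT low libraries (log2 fold change 0.58, adjusted p = 0.128). Further members without overlap were Rplp0, Rps3, Rps10, Rpl13a, Fau and Rpl23a, with log2 fold changes of 0.31 to 0.54 and adjusted p of 0.0894 to 0.450. The choice to name Rps3 and Rpl23a was made with their values in view.

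For 5 members the fold change in the low bin was negative, and for 4 of them the sign rested on animal 1. Rps4l, an annotated relative of Rps4x, stood at 24.7, 59.3 and 103 CPM in GrnKO low, against 5.97, 94.1 and 129 CPM in WT low libraries (log2 fold change −0.46 ± 0.455, SE; adjusted p = 0.845). Rps27l, a relative of Rps27 that is known as a p53 target, had a log2 fold change of −0.24 (adjusted p = 0.876), and Rpl22l1, a relative of Rpl22, one of −0.07 (adjusted p = 0.977). Rps24 and Rpl34 had −0.11 and −0.08 (adjusted p = 0.935 and 0.951). Without animal 1, Rps27l had a log2 fold change of 0.21, Rps24 0.08, Rpl22l1 0.06 and Rpl34 0.02, whereas Rps4l had −0.79 (adjusted p = 0.210 to 0.990 over the 5). None of these 5 passed the test, and the canonical partners had positive values, 0.30 for Rps4x, 0.37 for Rps27 and 0.34 for Rpl22 (adjusted p = 0.589 to 0.692). Rpl7l1, a relative of Rpl7, had a log2 fold change of 0.04, against 0.27 for Rpl7.

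Markers of other cells differed between the same libraries. All 5 erythrocyte markers had positive fold changes between GrnKO low and WT low, and their sum ranged over 53.3 to 35209.5 CPM in GrnKO low and 5.50 to 38.6 CPM in WT low libraries. Of 15 tested T and NK cell markers, 14 had positive fold changes, with sums of 509 to 1202 CPM in GrnKO low and 124 to 629 CPM in WT low libraries, where Prf1 was at 0. All 7 tested neutrophil markers did, with sums of 4402 to 29368 CPM in GrnKO low and 1677 to 25046 CPM in WT low. Of 6 tested B cell markers, 5 had positive fold changes, with sums of 636 to 16995 CPM in GrnKO low and 703 to 3197 CPM in WT low. All 8 astrocyte markers and all 13 mitochondrially encoded genes had negative fold changes. No marker in these lists was called. With the erythrocyte and mitochondrially encoded genes left out of library size and scaling, 2 members were called, Rpl19 among them. The part of these cells in the ribosomal protein levels was not tested.

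In the lipofuscin-high bin, the family's median difference between the genotypes was small. No member was called (0.163% of all tested genes were), and DESeq2 and limma-voom called none either. A positive fold change was found for 57 of 82 members (45.8% of all tested genes), with a median log2 fold change of 0.07 against −0.06 over all tested genes. An unadjusted p under 0.05 was reached by 3 members, all higher in GrnKO (3.66%, against 2.81% of all tested genes), which is near the background, and by 0 lower (3.49% of all tested genes). With library size as the only scaling the median of the members turned to −0.02 and that of all tested genes to −0.15. With single animals left out, the median lay between 0.02 (without animal 7, 46 of 82 members positive) and 0.14 (without animal 1, 74 positive), with 0 members called; without animal 2 it was 0.04, with 50 positive.

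Those 3 were Rpl15, Rpl4 and Rpl11. Rpl4, which lines the tunnel through which the new protein leaves, was the sole member without overlap (1.22% of members, against 0.717% of all tested genes). It stood at 398, 433 and 482 CPM in GrnKO high, against 283, 333 and 385 CPM in WT high libraries (log2 fold change 0.39 ± 0.175, SE; adjusted p = 0.694). Rpl15 stood at 362, 430 and 588 CPM in GrnKO high, against 282, 375 and 420 CPM in WT high libraries (log2 fold change 0.32, adjusted p = 0.666). Rpl11 binds the 5S rRNA together with Rpl5, and free Rpl11 and Rpl5 hold the p53 regulator Mdm2. It stood at 408, 487 and 519 CPM in GrnKO high, against 308, 388 and 484 CPM in WT high libraries (log2 fold change 0.27, adjusted p = 0.751). Its partner Rpl5 had a log2 fold change of −0.10 in the same comparison (adjusted p = 1.0). At the other end were Rps27, with −0.34, and Rpl8, with −0.22 (adjusted p = 1.0 for both).

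**Figure D2:**
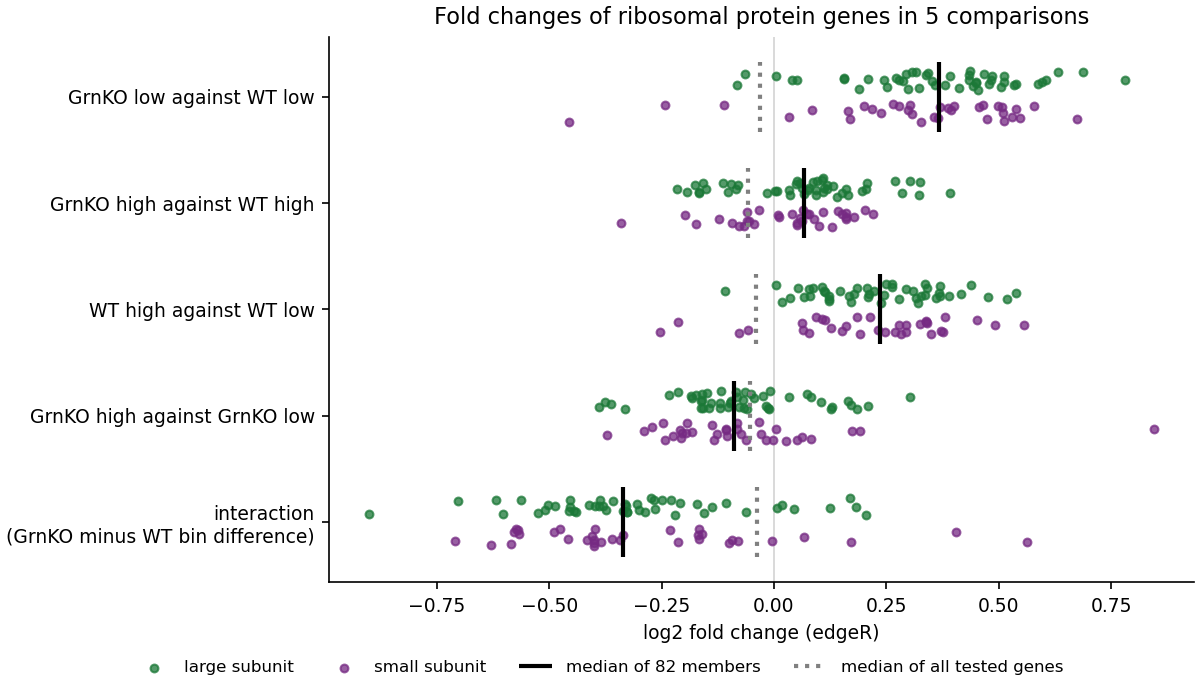
Log2 fold changes of the 82 members (horizontal axis; green, large subunit; purple, small subunit) in 5 comparisons (rows), with the median of the members as a black line and that of all tested genes as a dotted line. The members lie to the right in GrnKO low against WT low (median 0.37) and WT high against WT low (0.23), near 0 in both comparisons with GrnKO high (0.07 and −0.09), and to the left in the interaction (−0.34).

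Lipofuscin load within WT brains was compared next. The reported tests between bins and of the interaction had 1 term per group and did not use the pairing of bins by animal. In WT mice, 77 of 82 members had a positive log2 fold change in high against low libraries (47.6% of all tested genes), with a median of 0.23 against −0.04 over all tested genes. Called members numbered 0, against 0.248% of all tested genes, and DESeq2 and limma-voom also called 0. At an unadjusted p under 0.05, 18 members (22.0%) were higher and 0 lower, against 3.85% and 4.42% of all tested genes. That count depended on the scaling and on single animals. With library size only, 2 members were higher and 1 lower, 51 were positive and the median was 0.06; without animal 9, 6 were higher and the median was 0.15, and without animal 3, 10 were higher. In most animals (at least 4 of 6) 68 members were higher in the high bin, and in all 6 WT animals 6 members were (Rpl8, Rpl13, Rps14, Rps3, Rps20 and Rpl27a), a proportion set against 3.35% of all tested genes. This comparison uses the same WT low libraries as that of GrnKO low with WT low, so the values of the pair of comparisons are not independent.

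Rps10, which sits at the mRNA entry of the small subunit and is marked with ubiquitin on stalled ribosomes, had the smallest p. It stood at 176, 232 and 317 CPM in WT high, against 152, 162 and 189 CPM in WT low libraries (log2 fold change 0.49 ± 0.147, SE; adjusted p = 0.207), higher in 5 of 6 animals. Rpl14, of the large subunit, stood at 419.6, 515 and 626 CPM in WT high, against 242, 397 and 448 CPM in WT low libraries (log2 fold change 0.48, adjusted p = 0.272). Fau, which encodes the small-subunit protein S30 fused to a ubiquitin-like protein, stood at 449, 711 and 1188 CPM in WT high, against 461, 540 and 647 CPM in WT low libraries (log2 fold change 0.45, adjusted p = 0.426). The groups overlapped for all of these. Rps24 and Rps27l had the most negative values, −0.25 and −0.21 (adjusted p = 0.819 and 0.938), with Rps24 higher in the high bin in 1 of 6 animals. For Rps27l, animal 1 stood at 1738 CPM in the low and 1019 CPM in the high library. The other WT animals stood at 472 to 517 CPM in the low and 387 to 671 CPM in the high bin.

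In GrnKO mice the median difference between the bins was nearer 0. Of the 82 members, 19 had a positive log2 fold change in high against low libraries (46.4% of all tested genes), and the median was −0.09 against −0.05 over all tested genes. There were 0 called members (0.185% of all tested genes), also by DESeq2 and limma-voom. An unadjusted p under 0.05 was reached by 1 member, Rpl8, which was lower in the high bin (4.64% of all tested genes were lower and 3.16% higher). With single animals left out, the median lay between −0.18 (without animal 2, 16 members positive) and −0.03 (without animal 4, 33 positive); without animal 8 it was −0.06, with 28 positive. With library size only it was −0.21, with 12 members lower at an unadjusted p under 0.05. Rpsa, the small-subunit protein also known as the laminin receptor, stood at 250.4, 286 and 361 CPM in GrnKO high, against 311, 349 and 367 CPM in GrnKO low libraries (log2 fold change −0.25, adjusted p = 0.747). Rpl37a stood at 703, 784 and 1211 CPM in GrnKO high, against 826, 1007 and 1546 CPM in GrnKO low libraries (log2 fold change −0.39, adjusted p = 0.726). The positive end was Rps4l, with 69.1, 111 and 148 CPM in GrnKO high, against 24.7, 59.3 and 103 CPM in GrnKO low libraries (log2 fold change 0.85 ± 0.457, SE; adjusted p = 0.741), higher in 5 of 6 animals.

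Markers of blood-borne cells differed between the bins. Erythrocyte markers summed to 15.3 to 10073 CPM in GrnKO high against 53.3 to 35209.5 CPM in GrnKO low, and to 18.0 to 6020 CPM in WT high against 5.50 to 38.6 CPM in WT low libraries. All 5 had negative fold changes between the bins in GrnKO mice (median log2 −1.87) and positive ones in WT mice (7.50), and none was called. The WT value rested on animals 1 and 3, with 5662 and 6020 CPM in the high bin, whereas the remaining WT high libraries held 18.0 to 75.1 CPM. With the erythrocyte markers and the mitochondrially encoded genes left out of library size and scaling, the median of the members was −0.08 in GrnKO and 0.25 in WT mice. All 7 tested neutrophil markers were lower in the high bin, with sums of 24.3 to 3182 CPM in GrnKO high against 4402 to 29368 CPM in GrnKO low, and of 15.3 to 2403 CPM in WT high against 1677 to 25046 CPM in WT low. T and NK cell markers summed to 64.2 to 289 CPM in GrnKO high against 509 to 1202 CPM in GrnKO low, and to 86.1 to 184 CPM in WT high against 124 to 629 CPM in WT low, with Ncr1 at 0 in WT high and Prf1 at 0 in WT low. The 6 monocyte markers were lower in the high bin too, with 1 called in GrnKO and 3 in WT mice. All 6 tested B cell markers were lower in the high bin in GrnKO mice (median log2 −3.22) and 4 of 6 in WT mice (−1.05), with none called. Their sums were 446 to 711 CPM in GrnKO high against 636 to 16995 CPM in GrnKO low. In WT mice the B cell sums were 172 to 2466 CPM in the high and 703 to 3197 CPM in the low bin. The part of these cells in either bin comparison was not tested.

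Whether the bin difference itself depended on genotype was tested as an interaction, GrnKO minus WT. It was negative for 71 of 82 members (51.9% of all tested genes), with a median of −0.34 against −0.04 over all tested genes. The number of members called was 0, and 0% of all tested genes were called (741 genes had an unadjusted p under 0.05; DESeq2 called 72 genes and limma-voom 1). At an unadjusted p under 0.05, 14 members (17.1%) were negative and 0 positive, against 2.90% and 2.36% of all tested genes. Those 14 included Rps10 (−0.63), Rps19 (−0.57), Rpl26 (−0.60), Fau (−0.58) and Rplp0 (−0.46). The median stayed between −0.41 and −0.26 when any single animal was left out. In the same contrast all 5 erythrocyte markers (median log2 −9.12) and all 6 endothelial markers (−2.27) were negative and all 13 mitochondrially encoded genes positive (0.47), with none called. With the erythrocyte and mitochondrially encoded genes left out of library size and scaling, the median of the members was −0.34. The part of these cells in the interaction was not tested.

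Rpl8 carried the largest interaction among the members. Its level was 215, 257 and 298 CPM in GrnKO high against 269, 325 and 411 CPM in GrnKO low libraries, and it was lower in the high bin in every one of the 6 GrnKO animals. In WT mice it was 220.3, 307 and 385 CPM in the high bin against 136, 218 and 252 CPM in the low bin, and it was higher in the high bin in every one of the 6 animals. The log2 fold changes between bins were −0.36 ± 0.165 in GrnKO and 0.54 ± 0.165 in WT mice (SE), and the interaction was −0.90 ± 0.233 (SE; unadjusted p = 0.000652). Adjusted over all tested genes, p was 0.786 in edgeR and 0.0221 in DESeq2. No other member was lower in the high bin of every GrnKO animal (4.27% of all tested genes were), and no member was lower in the high bin of every WT animal, so Rpl8 was the sole member of the 82 whose high and low levels had opposite orders in the 2 genotypes in all 12 animals. In WT animal 11 its levels were 220.3 CPM in the high and 219.6 CPM in the low library, a difference smaller than the rounding of a single deposited value (up to 5.0%).

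**Figure D3:**
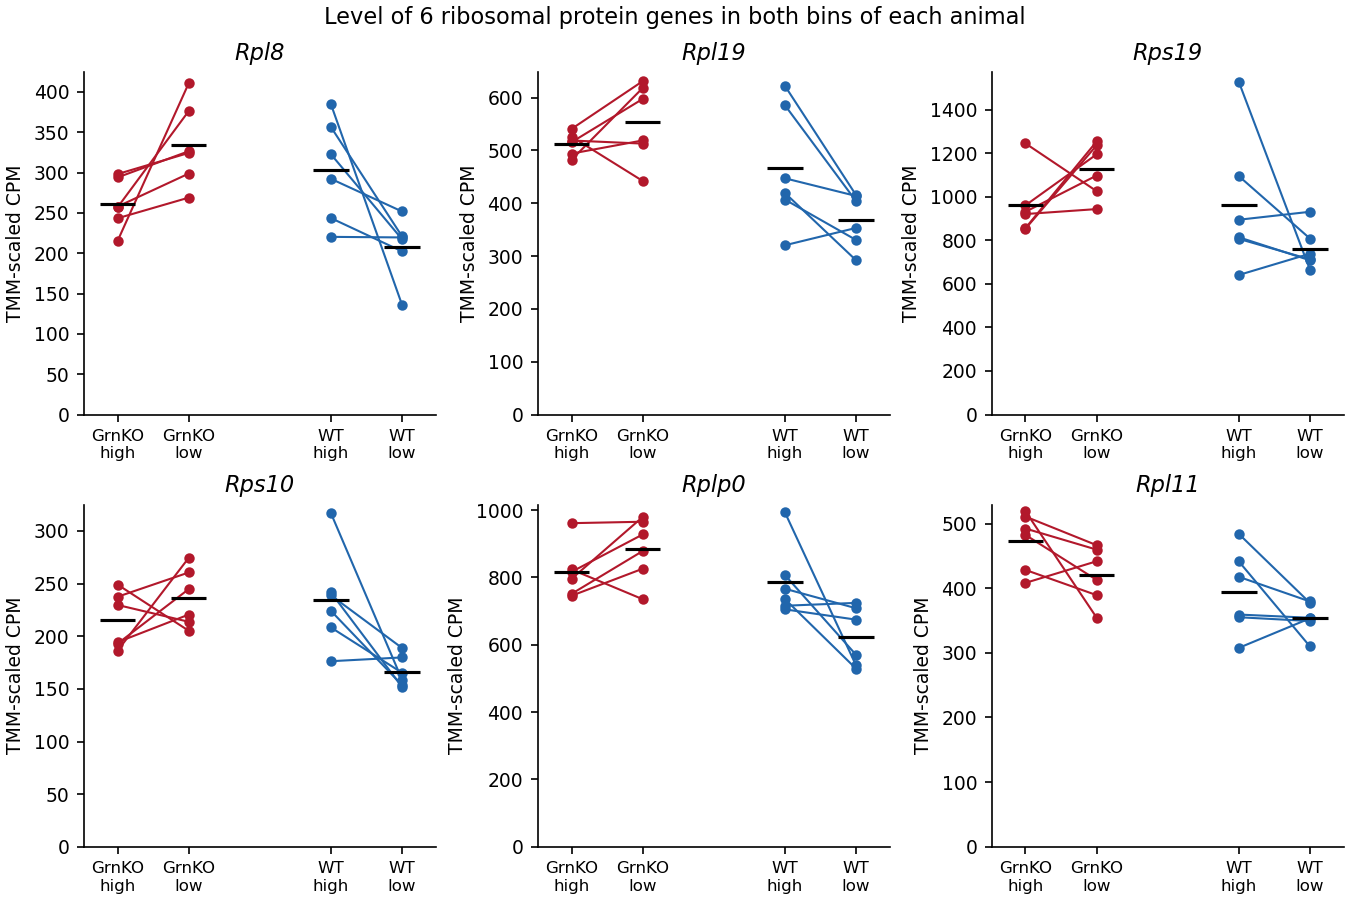
TMM-scaled CPM of 6 ribosomal protein genes (vertical axes start at 0) in the high and low bin of GrnKO (red) and WT (blue) mice; lines join the libraries of an animal and black bars are group means (n = 6). All 6 Rpl8 lines go up toward the low bin in GrnKO and down in WT mice, Rpl19, Rps19, Rps10 and Rplp0 have their lowest mean in WT low, and Rpl11 is higher in the high bin in 5 of 6 animals of each genotype.

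The proteins of the ribosomal stalk, which recruits translation factors, are given across all groups. Rplp0, the stalk base, stood at 746, 806 and 961 CPM in GrnKO high, 705, 751 and 993 CPM in WT high, 735, 903 and 980 CPM in GrnKO low, and 529, 622 and 724 CPM in WT low libraries. WT low lay below GrnKO low without overlap (log2 fold change 0.51 ± 0.130, SE; adjusted p = 0.0894). The acidic stalk proteins Rplp1 and Rplp2 had log2 fold changes of 0.48 and 0.38 between GrnKO low and WT low (adjusted p = 0.372 and 0.427), with overlapping groups. Rpl12, which binds beside the stalk base, stood at 198, 220.3 and 309 CPM in GrnKO low, against 113, 149 and 212 CPM in WT low libraries (log2 fold change 0.63, adjusted p = 0.129). Rps6, the substrate of S6 kinase below mTORC1, varied little, with 519, 634 and 768 CPM in GrnKO low against 496, 568 and 621 CPM in WT low libraries (log2 fold change 0.17, adjusted p = 0.719). Rps27a, a fusion of ubiquitin and a small-subunit protein, had 0.36 (adjusted p = 0.574), and Rpl5 of the 5S particle 0.21 (adjusted p = 0.639).

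With both libraries of an animal summed, so that the animal was the replicate, 77 of 82 members had a positive fold change in GrnKO against WT (46.6% of the 13801 genes tested), with a median log2 of 0.23 against −0.04 over all of these. No member was called (0.246% of genes were). DESeq2 called 1 (Rpl12) among 272 genes called, and limma-voom 0 among 76. At an unadjusted p under 0.05, 25 members (30.5%) were higher and 0 lower, against 4% and 4.47% of genes. With library size only, 2 members were higher, 63 were positive and the median was 0.11. Left-out animals gave 12 (without animal 7 or 12) to 56 (without animal 1) higher members. Rpl12 had the smallest p, with a log2 fold change of 0.48 ± 0.130 (SE; adjusted p = 0.201). Without animal 1, edgeR called Rpl12 and Rpl36a, among 142 genes called. Over the 12 animals of both genotypes, high against low libraries gave 63 positive members, a median of 0.09 against −0.04 over all tested genes, and 0 called members (1.31% of all tested genes were called; DESeq2 and limma-voom also called 0 members). An unadjusted p under 0.05 was reached by 1 member, Rpl14, which was higher in the high bin (4.44% of all tested genes were higher and 6.76% lower). A positive fold change was found for 47% of all tested genes, and with library size only the median of the members was −0.06.

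Members with a pyrimidine run at the annotated start, such as Rps10, Fau and Rpl15 above, were set beside members without one, such as Rplp0 and Rpl11. The median log2 fold change of GrnKO low against WT low was 0.35 for the 38 members with a run and 0.35 for the 23 without. For WT high against WT low it was 0.20 with and 0.18 without a run, for GrnKO high against GrnKO low −0.08 and −0.11, and for the interaction −0.31 and −0.34.

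Members differed in how much they varied between libraries of a group. The SD of log2 CPM within groups was 0.167 for Rpl11, 0.993 for Rps4l and 0.292 at the median. Many members were highest or lowest in the same library. In GrnKO high, animal 2 held the highest value of 63 of the 82 members, and in WT high, animal 7 the lowest of 64 and animal 1 the highest of 47. In WT low, animal 1 was both the highest library for 46 members and the lowest for 19.

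**Figure D4:**
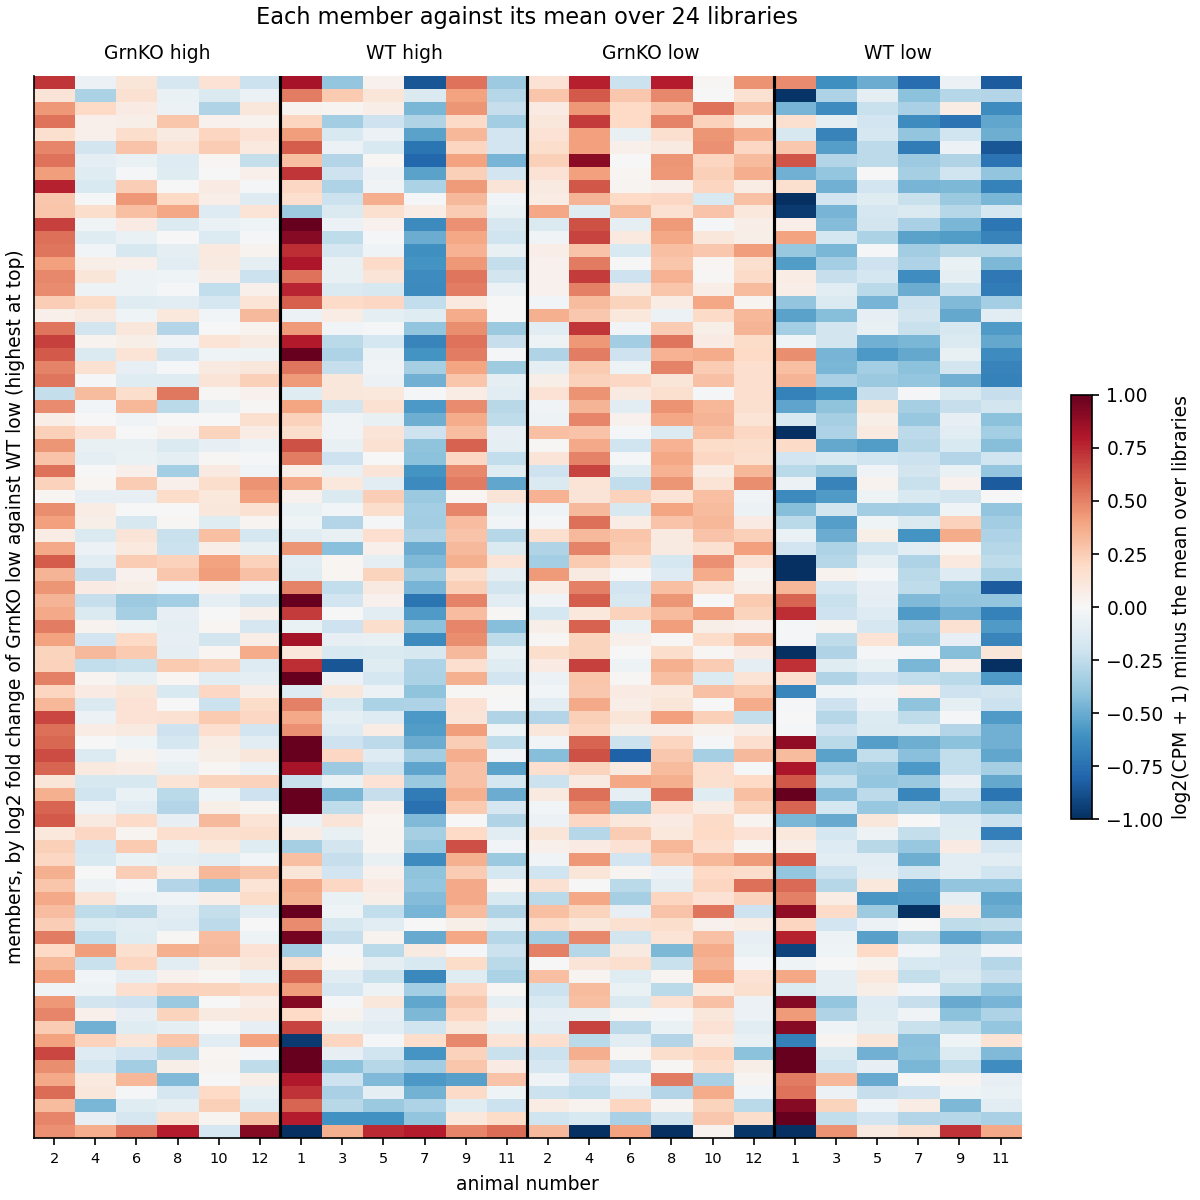
Deviation of each of the 82 members (rows, ordered by log2 fold change of GrnKO low against WT low) from its own mean over the 24 libraries, as log2(CPM + 1), with libraries in columns by animal number within GrnKO high, WT high, GrnKO low and WT low; colours stop at −1 and 1. Most WT low columns are blue and most GrnKO low columns red, animal 2 stands out in GrnKO high, and the WT low library of animal 1 holds both red and blue rows.

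In animal 1, shorter members stood further above the other WT libraries than longer members did, with exceptions. Transcript lengths of 81 members (GENCODE M21; 271 to 3706 bases) were divided at their median of 751 bases. Each length is that of the transcript with the longest coding sequence, which need not be the one expressed. In the WT low library of animal 1, the 42 shorter members had a median deviation of 0.69 log2 units from the mean of the other WT low libraries, and the 39 longer members one of 0.02. Above that mean were 35 of the 42 shorter and 20 of the 39 longer members. The WT high library of animal 1 gave medians of 0.82 and 0.16. Rps27l (575 bases) stood at 1738 CPM in that WT low library, against 472 to 517 CPM in the other 5, and Rpl39 (612 bases) at 401 CPM, against 109 to 159 CPM. Rpl14 (1009 bases) stood at 242 CPM there, against 354 to 448 CPM in the other 5, and Rpl10 (799 bases) at 219 CPM, against 385 to 512 CPM. Longer members that were high there included Rps24 (1613 bases), at 574 CPM against 224 to 356 CPM, and Rps4x (975 bases), at 831 CPM against 378 to 512 CPM. In the comparison of GrnKO low with WT low, the median log2 fold change was 0.36 for shorter and 0.39 for longer members, and 0.46 and 0.39 without animal 1. In that of GrnKO high with WT high it was 0.02 and 0.10, and 0.15 and 0.14 without animal 1. The division by length was made after the values were seen.

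No other list of translation genes had a called member either. In lists chosen with earlier results known, 0 of 36 initiation factors, 0 of 14 elongation and termination factors, 0 of 19 other TOP or ribosome-associated genes, 0 of 47 ribosome biogenesis genes and 0 of 31 regulators of translation were called in any of the 7 contrasts. Over these contrasts, 0% to 1.31% of all tested genes were called, so a count of 0 in lists this short is near that share. Between GrnKO low and WT low, the median log2 fold change was 0.15 for initiation factors (20 of 36 positive), −0.11 for elongation and termination factors (6 of 14), 0.16 for other TOP genes (13 of 19), 0.27 for biogenesis genes (33 of 47) and 0.14 for regulators (18 of 31). Of all tested genes, 48.3% were positive in that contrast, with a median of −0.03. The initiation helicase gene Eif4a2 had −0.90 (adjusted p = 0.0529), and Atf4, the transcription factor of the integrated stress response, 0.93 (adjusted p = 0.134). For WT high against WT low, the biogenesis genes had a median of 0.21 (30 of 47 positive) and elongation and termination factors one of −0.29 (4 of 14 positive). In that contrast the median was −0.11 for other TOP genes (8 of 19 positive), the opposite sign to that of the members. It was 0.08 for initiation factors (20 of 36 positive) and −0.205 for regulators (12 of 31 positive). Among all tested genes, 47.6% were positive for WT high against WT low, with a median of −0.04. Of 19 immediate-early genes, which are induced quickly by stimulation, Egr1 was lower in GrnKO high than in WT high libraries (log2 fold change −1.89, adjusted p = 0.0489), and Fos and Klf2 were lower in GrnKO high than in GrnKO low libraries (−1.78 and −1.59, adjusted p = 0.0106 and 0.0152). The sum of that list was 840 to 1779 CPM in GrnKO high, 1290 to 3236 CPM in WT high, 1695 to 3273 CPM in GrnKO low and 1989 to 4627 CPM in WT low libraries, and its part in the ribosomal protein levels was not tested.

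Reads of near-identical copies can be split between rows. The table held 324 rows named as pseudogenes of members, 4 of them above 10 normalized CPM. Such rows held 26.8% of the joint counts of Rpl10, 10.6% of those of Rps2, 3.81% of those of Rpl9 and 2.43% of those of Rpl36, so the levels of these members are uncertain.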

How the data were processed

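RNA from 24 sorted libraries was measured. The authors deposited estimated counts per gene and a normalized CPM signal, both with 2 significant digits; per the submitters' processing notes, STAR 2.7.9a, Salmon 1.10.1, edgeR 4.6.2, R 4.5.1 and GRCm39 were used. How strand was handled in counting is not stated in them. Counts had been assumed, but 8.28% of the values from 0 to 10 departed from whole numbers by more than 1e-09, so the estimated counts were rounded. Columns matching no sample numbered 0. Rows without a symbol held 0% of counts.

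Members and gene lists were chosen with earlier results of these data known. In edgeR 4.0.16 (R 4.3.3), filterByExpr removed 42890 genes and left 14090. TMM scaling, 1 term per group, the sex label as covariate and quasi-likelihood tests (2-sided, Benjamini-Hochberg) followed, in 1 fit of 24 libraries; a second fit used sums per animal. Because all animals opposed their sex label, swapping the labels leaves the fit as it is. The common biological coefficient of variation over all 14090 tested genes was 1.08. Alternatives used DESeq2 1.42.0, limma 3.58.1, other scalings, filters and left-out animals. Scripts were tested on simulated counts. Named members were Grn, the 4 of smallest p in each direction per contrast, and stalk, fusion, 5S-particle and paralog genes with Rpsa and Rps6; others are marked where they appear. Not every gene named by this rule is reported here.

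Labels pair the bins by animal. Deviations of an animal's libraries correlated at −0.0157 to 0.321 (median 0.103, 7204 genes), and 6 of 12 correlated best with their own partner. Depth was 12.9 to 46.8 M counts. Reads carried no molecular identifiers. Figures were drawn with matplotlib 3.10.9.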

Additional observations from a re-analysis of the deposited data

Results flagged for a closer look

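Among 41 named members and the members' share of counts, 168 groups of 6 libraries were examined for a library far from the other 5 (a gap above 0.625 of the group's range), and 37 were found. That limit is passed by about 1 in 20 groups of independent values. The members share the same libraries, so the 168 groups are not separate and the 37 cannot be set against that rate.

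Animal 2 was the outlying GrnKO high library for Fau (899 CPM), Rpl13a (726 CPM), Rpl26 (692 CPM), Rpl37a (1211 CPM), Rplp1 (1626 CPM), Rplp2 (1142 CPM), Rps14 (2767 CPM), Rps19 (1245 CPM), Rps20 (484 CPM), Rps26 (277 CPM), Rps27 (1211 CPM) and Rps7 (553 CPM), and for the members' share of counts (4.98%). Animal 12 was so for Rplp0 (961 CPM).

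In WT high, animal 1 was far above the others for Rpl17 (283 CPM), Rpl39 (373 CPM), Rpl5 (849 CPM), Rps14 (4131 CPM), Rps24 (458 CPM) and Rps7 (622 CPM) and far below them for Rps4l (34.5 CPM). Animal 9 was far above for Rpl7 (917 CPM) and Rplp0 (993 CPM).

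In GrnKO low, animal 4 stood apart for Rpl17 (283 CPM) and Rps20 (437 CPM), animal 8 for Rpl22l1 (64.9 CPM) and animal 10 for Rpl34 (576 CPM). In WT low, animal 1 was the outlying library each time, for Rpl17 (333 CPM), Rpl34 (650 CPM), Rpl37a (1285 CPM), Rpl39 (401 CPM), Rps14 (2192 CPM), Rps26 (363 CPM), Rps27 (1436 CPM), Rps27a (756 CPM), Rps27l (1738 CPM) and Rps4x (831 CPM). Apart from Rps4l, all of these libraries were the highest of their group.

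Rpl8 was lower in the high bin in 6 of 6 GrnKO animals and higher in 6 of 6 WT animals. The difference between the genotypes was tested as an interaction, whose adjusted p was 0.786 in edgeR's quasi-likelihood test and 0.0221 in DESeq2.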

How the results depend on the processing

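The median log2 fold change of the members kept its sign in every contrast and alternative except in GrnKO high against WT high and in high against low over 12 animals with library size as the only scaling (−0.02 and −0.06); that scaling moved the median of all genes to −0.17 in GrnKO low against WT low, −0.15 in GrnKO high against WT high, −0.20 in WT high against WT low and −0.17 in GrnKO high against GrnKO low. In GrnKO low against WT low, 0 members were called in the reported fit, 11 with DESeq2, 2 without erythrocyte and mitochondrially encoded genes in the library size, 1 with no filter on low counts, 3 without the 4 libraries richest in choroid plexus markers (an alternative chosen after seeing the data), and 0 to 10 when an animal was left out (10 without animal 1; 1 each without animals 2, 6 and 9). In WT high against WT low, 1 member was called without the filter (Rps14, adjusted p = 0.0490). For the interaction it was 1 with DESeq2 (Rpl8). In the comparison per animal it was 1 with DESeq2 (Rpl12) and 0 to 2 with an animal left out. The share of counts held by the members gave ratios of 1.30 for GrnKO low over WT low and 0.957 for GrnKO high over GrnKO low in the deposited normalized CPM, against 1.17 and 0.873. With the animal as a fixed replicate block in edgeR, 0 members were called in each of the 4 bin contrasts, with medians of 0.25 in WT and −0.09 in GrnKO mice, and the genes called numbered 64 in WT (35 without the block) and 48 in GrnKO mice (26 without). The number of genes called lay, over all alternatives and left-out animals, between 21 and 358 in GrnKO low against WT low (46 as reported), 8 and 284 in GrnKO high against WT high (23), 7 and 299 in WT high against WT low (35), 2 and 360 in GrnKO high against GrnKO low (26), 0 and 329 for the interaction (0), 119 and 1040 over 12 animals (185), and 17 and 363 per animal (34). The cause was not tested for any of these. The 6 animals per group and values of 2 significant digits limit what a single member can show. The common biological coefficient of variation of 1.08 is that of all tested genes. For the members, the SD of log2 CPM within groups was 0.292 at the median. The fold changes here are mostly below 1 log2 unit.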
